A study of Mus musculus with 2 samples.

Results

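The *Fst* *Gpc4* group comprised 57 of the 457 inhibitory neurons (12.5%, 95% interval 9.59 to 15.9) found among 14008 single-cell barcodes from the ventral parafacial region, a narrow zone of the medulla that holds neurons controlling breathing. A barcode counted as an inhibitory neuron when it had at least 800 genes, at most 50 hemoglobin UMIs, at most 20% mitochondrial UMIs, at least 1 UMI of *Slc32a1* and at least 2 UMIs of *Gad1*, *Gad2* and *Slc6a5* together. A UMI is a molecular barcode that counts 1 captured RNA molecule. Members were then selected by the sum of *Fst*, *Gpc4* and *Nwd2* UMIs, which had to be at least 2 and strictly larger than each of 4 other sums. Those were *C1ql2* with *Prox1* and *Megf11*, *Cck* with *Tfap2b*, *Dmbx1* and *Npff*, *Crhbp* with *En1*, *Gata3*, *Ndnf* and *Satb1*, and *Tac2* with *Tacr3* and *Prkcd*. The values of these genes made the groups, so they are given only as a description.

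Cells came from 10-day-old C57BL6/J mice and were sequenced in 2 libraries, each from 8 pooled animals (4 male and 4 female). One library was labelled WT and came from untreated mice. For the other, mice received 4OH-tamoxifen on 3 days at a daily dose of 0.2 mg. The labels name no batch, and each library was taken as its own batch. Both groups had the same strain and age and carried no transgene named in the labels, and treatment, batch and library cannot be told apart. With 1 library per condition and cells that are not replicates, no test was made. Intervals cover counting error only.

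The ventral parafacial region contains glutamatergic chemoreceptor neurons of the retrotrapezoid nucleus, which drive breathing when CO2 rises, intermingled with neurons that release GABA, glycine or both. *Fst* encodes follistatin, a secreted protein that binds activins and some bone morphogenetic proteins and keeps them from their receptors. *Gpc4* encodes glypican 4, a heparan sulfate proteoglycan anchored in the cell membrane that is best known for promoting the formation of glutamatergic synapses, and *Nwd2* encodes a protein with NACHT and WD repeat domains.

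The untreated library held 3767 barcodes and 18496942 UMIs, and the 4OH-tamoxifen library 10241 barcodes and 34704167 UMIs. Of these, 3345 and 9050 passed the filters, and 94 and 363 were inhibitory neurons. The libraries shared 40 barcodes, and no member was among them. Untreated members had a median of 9550 UMIs (3412 to 19019) and 4OH-tamoxifen members 4169 (2248 to 12490), near the 8430.5 and 4354 of the other inhibitory neurons. As a background for shares of cells, 1092 microglia-like cells were taken (at least 20 UMIs of 7 microglia genes, and not inhibitory neurons), which should lack neuronal transcripts. Their median was 3028 UMIs, against 4547 in the members of both libraries together.

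The group made up 14 of the 94 untreated inhibitory neurons (14.9%, 8.39 to 23.7) and 43 of the 363 4OH-tamoxifen ones (11.8%, 8.71 to 15.6). These intervals overlapped. The sum that selected the members had a median of 5 UMIs (2 to 10) among untreated members and of 3 (2 to 9) among 4OH-tamoxifen members. At the edge of the rule, 22 members had exactly 2 UMIs and 35 had more, while 24 inhibitory neurons with 1 UMI and no larger sum were left out. A further 2 neurons with at least 2 UMIs were left out because another sum was as large, and 8 because another was larger. In 37 members all other sums were 0, and 6 members were ahead of the next sum by 1 UMI. With at most 10% mitochondrial UMIs the group would comprise 35 cells, 7 untreated and 28 4OH-tamoxifen.

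Among the selecting genes, *Fst* (chr13:114452290-114458951, minus strand, GRCm38) was found in 48 of 57 members, where untreated cells had it at 243 UMIs per 1000000 (CPM) and 4OH-tamoxifen cells at 498 CPM. Pairs of levels are given in this order throughout. *Nwd2* (chr5:63649102-63810546, plus strand) was found in 35 members, at 153 and 207 CPM. *Gpc4* (chrX:52053021-52165252, minus strand) was found in 19 members, at 69.6 and 70.5 CPM. *Fst* was thus the gene that most members carried: 14 members had *Fst* only, 8 *Nwd2* only and 0 *Gpc4* only, whereas 16 had *Fst* with *Nwd2*, 8 *Fst* with *Gpc4*, 1 *Gpc4* with *Nwd2* and 10 all 3. A member with *Gpc4* only needed at least 2 of its UMIs. The highest count in a member was 2, and all 11 other inhibitory neurons with *Gpc4* had 1. The rule and the low level of *Gpc4* thus left little room for such members. In the microglia-like cells *Fst* and *Gpc4* were each found in 0.0916% and *Nwd2* in 0.183%.

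To see whether the selecting genes went together, each gene was also left out of the sum in turn, so that its share could be read in cells that it had not helped to choose. Neurons chosen on *Gpc4* and *Nwd2* had *Fst* in 15 of 24 cells (62.5%, 40.6 to 81.2), against 52 of 433 other inhibitory neurons (9.10 to 15.4%). Those chosen on *Fst* and *Nwd2* had *Gpc4* in 17 of 55 cells (30.9%, 19.1 to 44.8) against 13 of 402 (3.23%, 1.73 to 5.47). Those chosen on *Fst* and *Gpc4* had *Nwd2* in 20 of 42 cells (47.6%, 32.0 to 63.6) against 51 of 415 (12.3%, 9.29 to 15.8). Each gene was more frequent in the neurons chosen on the other 2. The 3 genes had been put together from earlier results of these data, so this is a description of how they overlapped.

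The position of the members among all inhibitory neurons was then examined by clustering the 457 cells on variable genes without any of the 22 genes of the rule. One of 5 clusters held 52 of the 57 members (91.2%), 11 untreated and 41 4OH-tamoxifen cells, and members were 59.1% of its 88 cells. At a finer resolution 42 members (73.7%) fell in a cluster of 68 cells and 8 in another of 12. The remaining 36 cells of the main cluster had a median of 3939 UMIs and were 33 4OH-tamoxifen and 3 untreated cells. Their selecting sum was 0 in 14 cells, 1 in 19 and at least 2 in 3. By the rule 7 of them belonged to the *C1ql2* *Prox1* group, 3 to the *Tac2* *Tacr3* group and 26 to none.

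**Figure D1:**
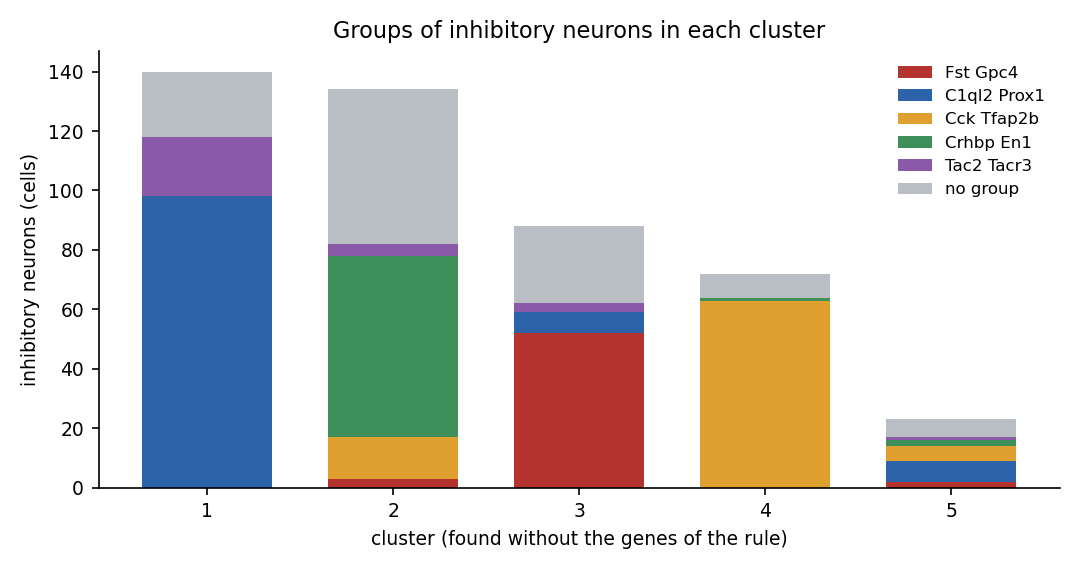
Number of inhibitory neurons (vertical axis, cells) in each of 5 clusters found without the genes of the rule (horizontal axis), with bars divided by the group that the rule gave each cell, both libraries together. Cluster 3 holds 52 of the 57 *Fst* *Gpc4* cells, 3 are in cluster 2 and 2 in cluster 5.

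In genes that the rule did not use, these 36 neighbours lay near the members for some and between them and the other neurons for others. *Igfbp5* was at 1363 CPM (1191 to 1553) in them, against 1590 CPM (1452 to 1738) in the 52 members of the cluster and 310 CPM (287 to 335) in the 364 other inhibitory neurons outside it. *Nr2f2* was at 579, 590 and 140 CPM, and *Edil3* at 483, 561 and 125 CPM, in the same order. *Scg2* was at 953 CPM (810 to 1114), 1636 CPM (1495 to 1786) and 294 CPM, and *Gfra2* at 90.5 CPM (50.6 to 149), 184 CPM (139 to 238) and 24.4 CPM. The intervals of neighbours and members overlapped for *Gfra2* and not for *Scg2*. *Fst* itself was at 90.5 CPM (50.6 to 149) in the neighbours and 2.44 CPM (0.792 to 5.69) outside. Of the 29 genes called higher in members by the comparison that follows, 26 were at least 2 times higher in the neighbours than outside, a comparison that the clustering itself favours. The 5 members outside the cluster all had *Nwd2* (155 CPM), had *Igfbp5* at 446 CPM (283 to 670) and *Fst* at 97.0 CPM, and 3 of them were untreated.

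Each member had at least 3 UMIs of 4 pan-neuronal genes, and 0 of these genes were called different from the other inhibitory neurons. With 0.677% of all genes called higher and 0.911% lower, a count of 0 among 4 is near the share over all genes. *Syp*, which encodes the synaptic vesicle protein synaptophysin, was found in all 57, at 1189 and 1240 CPM against 992 and 1123 CPM in the other inhibitory neurons. The glutamate transporter genes *Slc17a6*, *Slc17a7* and *Slc17a8* had 0 UMIs in 57 members. Taken as 3 counts of 57, this limits the share of such cells with a UMI to 5.26%, and does not limit the share that express the genes. *Slc17a6* was found in 1.10% of microglia-like cells. *Slc32a1*, the vesicular transporter for GABA and glycine that the rule required, was at 1169 and 921 CPM.

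Most members carried the transcripts for both inhibitory transmitters. *Gad1* or *Gad2*, which encode the enzymes that make GABA, were found together with *Slc6a5*, the glycine transporter of glycinergic neurons, in 36 of 57 members (63.2%, 49.3 to 75.6). Another 21 (36.8%, 24.4 to 50.7) had *Gad1* or *Gad2* without *Slc6a5*, and 0 had *Slc6a5* alone. In the other inhibitory neurons these shares were 65.2%, 32.0% and 2.75%. The rule required these genes together, but not in which mix. *Slc6a5* was at 299 CPM (216 to 403) and 301 CPM (232 to 384) in members, against 262 and 381 CPM in the others, and was found in 0.916% of microglia-like cells. *Slc6a9*, the glycine transporter found mostly in glia, was at 20.9 and 47.0 CPM, and *Abat*, which degrades GABA, at 403 and 334 CPM against 324 and 320 CPM. Transcripts of other transmitters were rare: *Slc5a7* was found in 10 members, *Th* in 3, *Chat*, *Slc18a3* and *Tph2* in 1 each, and *Dbh* and *Slc6a4* in 0. Of 3 transmitter genes tested outside the rule, 0 were called by the comparison that follows. Beside 0.677% higher and 0.911% lower over all genes, this count says little about transmitter genes.

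To find what else set the members apart, UMIs were summed over the 57 members and the 400 other inhibitory neurons in each library, and a gene was called where the ratio of CPM, after 10 CPM was added to both, was at least 2 or at most 0.5 in both libraries. Of 4281 genes with at least 50 CPM in members or others, 29 were higher in members (0.677%) and 39 lower (0.911%). The median log2 ratio over all genes was 0.03. With 1 CPM added, 45 genes were higher and 60 lower. Across the same genes, the profile of the members correlated with the cells of no group at Pearson's r = 0.932 and with the other groups at 0.873 to 0.903 in both libraries together, but the order was not shared by the libraries. In the untreated library the *C1ql2* *Prox1* group was the most alike (0.853) and the 8 cells of no group the least (0.741), whereas in the 4OH-tamoxifen library the cells of no group were the most alike (0.924). Genes are not independent, and small sets are noisier.

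Since 1 cell can carry a summed level, each of the 29 higher genes was also taken without the member that held most of its UMIs, an alternative added after the data were seen. Left out in each library, 18 genes, among them the 14 that ranked highest by the smaller of the ratios in the libraries and were found in at least 20% of members, were still past the limit in both. The other 11 were *Adarb2*, *Bmper*, *Gfra4*, *Hs6st2*, *Negr1*, *Plcb1*, *Pou3f2*, *Rab3b*, *Sst*, *St6galnac5* and *Zswim6*.

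**Figure D2:**
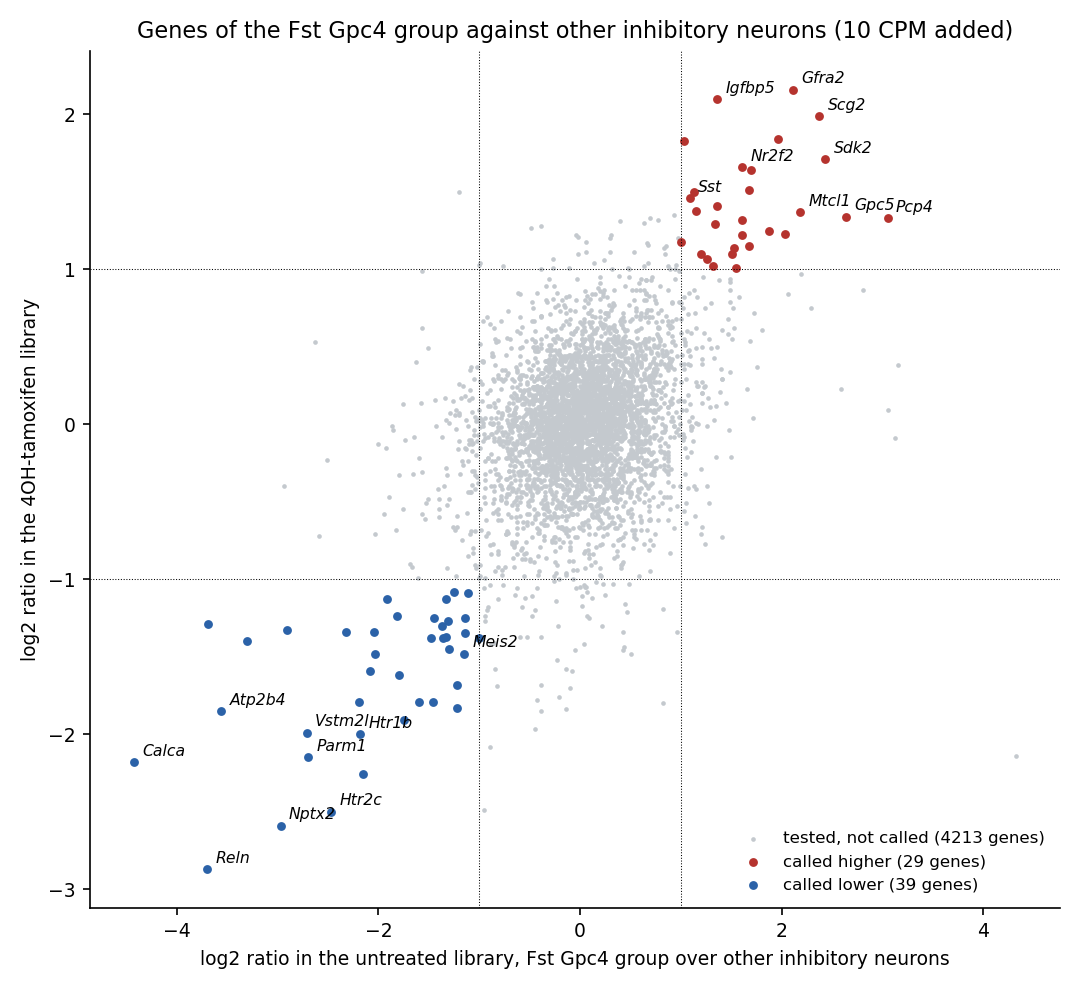
Each point is 1 of 4281 genes, at its log2 ratio of members over other inhibitory neurons in the untreated (horizontal axis) and the 4OH-tamoxifen library (vertical axis), after 10 CPM was added. The 29 genes called higher (red) lie past 1 on both axes and the 39 called lower (blue) past -1, from *Gfra2* (2.11 and 2.16) at the upper right to *Reln* (-3.70 and -2.87) at the lower left.

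*Igfbp5*, a secreted protein that binds insulin-like growth factors and had been listed as a marker of these cells from earlier results, had a median of 7 UMIs per member in both libraries (0 to 38 per untreated cell, 1 to 28 per 4OH-tamoxifen cell) and was found in 55 of 57. It was at 1127 CPM (960 to 1314) and 1626 CPM (1459 to 1806) in members, against 432 and 371 CPM in the other inhibitory neurons, 3.66 times higher over both libraries (3.27 to 4.09). Only 2 untreated members lacked it, while 49.2% of the other inhibitory neurons and 4.12% of microglia-like cells had it. After every cell was thinned to 2000 UMIs, 82.5% of members and 32.6% of the others had *Igfbp5*.

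In the order of the groups for *Igfbp5*, below the members (1425 CPM) came the *Cck* *Tfap2b* group at 706 CPM (632 to 787), the cells of no group at 485 CPM (425 to 552) and the *C1ql2* *Prox1* group at 272 CPM (235 to 314). The *Crhbp* *En1* and *Tac2* *Tacr3* groups followed at 205 CPM (165 to 252) and 170 CPM (110 to 251), and only the last 3 groups overlapped with a neighbour in this order. The members were the highest of the 6 sets in each library, but the order below them was that of the pooled cells and turned between libraries, with the *Crhbp* *En1* group at 499 CPM (8 cells) and 144 CPM (56 cells) and the cells of no group at 154 CPM (8 cells) and 520 CPM (106 cells).

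*Scg2* encodes secretogranin II, a protein of dense-core vesicles that is cut into neuropeptides. It was found in 55 of 57 members, with a median of 13.5 UMIs (0 to 34) per untreated cell and of 6 (0 to 21) per 4OH-tamoxifen cell. Its level was 1495 CPM (1302 to 1709) and 1494 CPM (1334 to 1668) in members, against 281 and 370 CPM in the others, a ratio of 4.35 (3.89 to 4.87). The highest other sets, the cells of no group and the *Crhbp* *En1* group, were both at 514 CPM. *Gfra2*, which encodes the receptor subunit that binds neurturin, was found in 37 of 57 members and 13.0% of the others. It was at 132 and 179 CPM against 22.8 and 32.1 CPM, and 5.45 times higher over both libraries (3.75 to 7.90). *Gfra4*, the related receptor subunit for persephin, was at 55.6 and 56.4 CPM against 22.8 and 19.3 CPM. Both *Gfra2* and *Gfra4* were thus called higher, *Gfra4* close to the threshold.

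**Figure D3:**
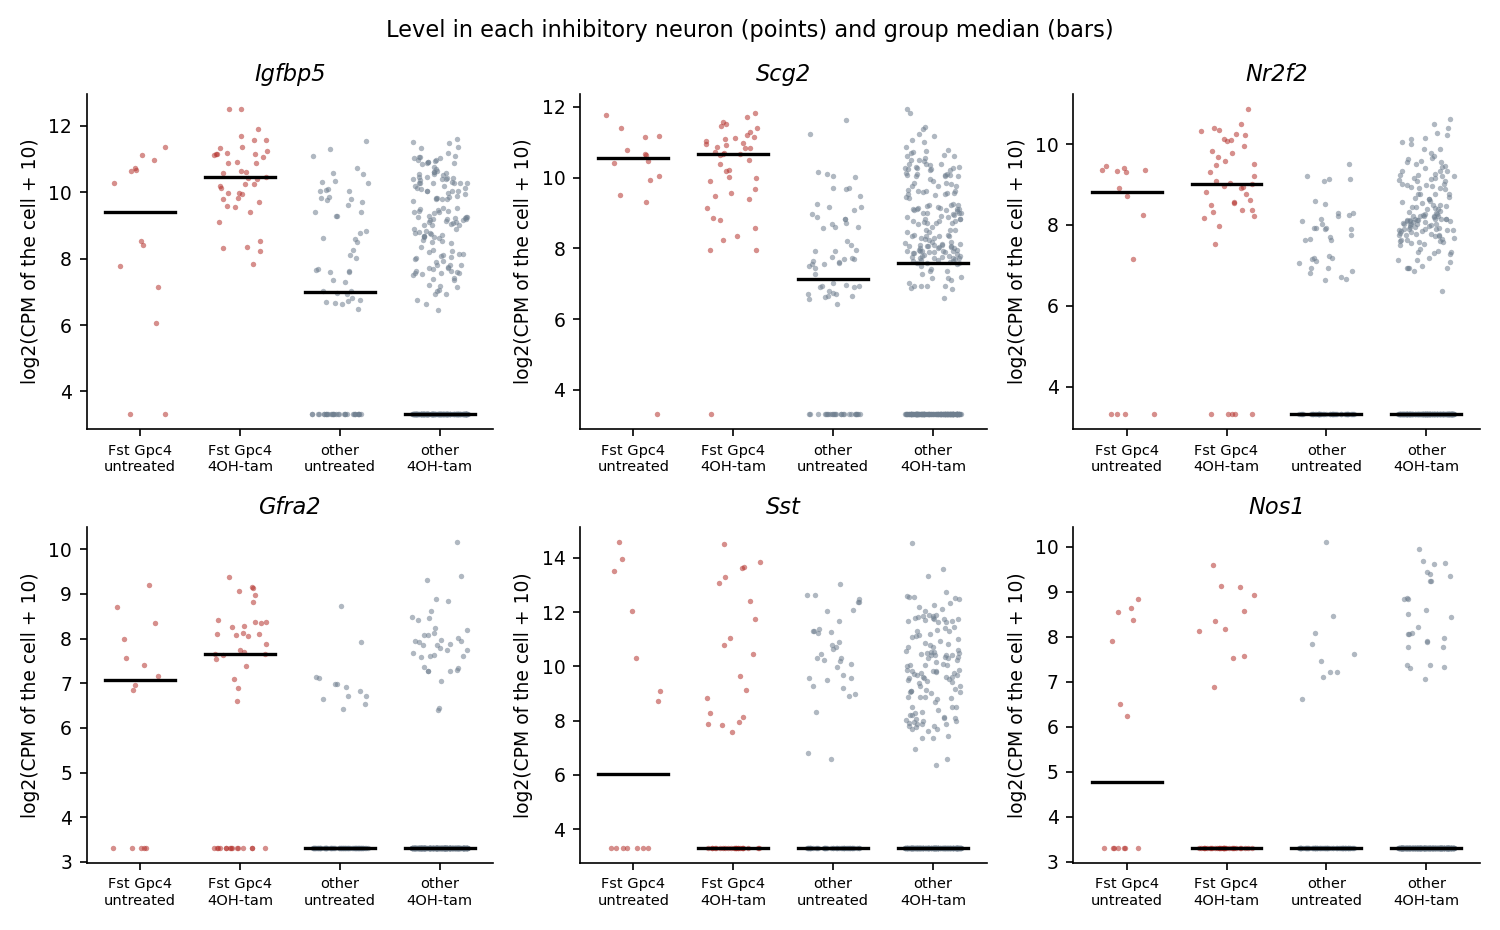
Level of 6 genes in each inhibitory neuron (points, log2 of the cell's CPM plus 10, vertical axes), split into members and other inhibitory neurons of each library (horizontal axes), with the group median as a bar. For *Igfbp5* and *Scg2* 55 of 57 members lie above the floor that marks 0 UMIs, while *Sst* and *Nos1* divide the members into cells with and without the transcript.

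Among transcription regulators, *Nr2f2* (COUP-TFII), a nuclear receptor of interneuron development, was found in 48 of 57 members at 396 CPM (300 to 514) and 634 CPM (532 to 751), against 123 and 194 CPM in the others (3.11 times higher over both libraries). *Lmo4*, a LIM-domain cofactor, was at 438 and 634 CPM against 164 and 233 CPM, also in 48 members, although 24.6% of microglia-like cells had it too. *Pou3f2*, a POU-domain factor of neural cells, was at 55.6 and 75.2 CPM against 6.08 and 26.3 CPM. In the opposite direction, *Meis2*, a homeodomain factor, was at 125 and 117 CPM against 291 and 347 CPM, and *Zfhx3*, a zinc-finger homeodomain factor, at 55.6 and 28.2 CPM against 170 and 122 CPM. In the pooled libraries *Zfhx3* was lower still in the *C1ql2* *Prox1* group (5.79 CPM) and highest in the *Cck* *Tfap2b* group (329 CPM). Of 22 tested genes on the list of lineage factors, 3 were higher (*Nr2f2*, *Lmo4* and *Pou3f2*) and 4 lower (*Meis2*, *Nfic*, *Zfhx3* and *Zfhx4*), beside 0.677% and 0.911% over all genes, with a median log2 ratio of -0.25. *Rora*, a nuclear receptor of the same list, was at 20.9 and 9.40 CPM against 47.2 and 71.9 CPM and was not called. None of 22 *Hox* genes reached the level to be tested.

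Heparan sulfate, the sugar chain that glypicans carry, is built and sulfated by dedicated enzymes. Of 22 tested genes on a list of these enzymes, of proteins that carry the chain and of synaptic partners of glypicans, which left out *Gpc4* itself, 3 were higher and 1 lower, beside 0.677% and 0.911% over all genes, and the list's median log2 ratio was 0.39, against 0.03 for all genes. *Hs6st2*, which adds sulfate to the chain, was found in 51 of 57 members at 723 CPM (591 to 876) and 907 CPM (783 to 1044), against 326 and 313 CPM in the others. Without its highest untreated cell its log2 ratio in that library was 1.00 in place of 1.13, just short of the limit before rounding. The glypican genes *Gpc5* and *Gpc6* were at 90.4 and 70.5 CPM and at 48.7 and 56.4 CPM in members, against 17.2 CPM (12.1 to 23.5) and 14.4 CPM (9.88 to 20.4) in the others of both libraries. All 3 were higher in both libraries, although the 2 glypicans were found in 17 and 14 members. *Nptx2*, which encodes a secreted pentraxin of synapses, had 0 UMIs in all 57 members and was at 68.5 and 50.1 CPM in the others.

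The genes of follistatin's own pathway were examined next. Of 50 genes for activins, bone morphogenetic proteins, their receptors and inhibitors, 8 reached the level to be tested, and 0 were called, with a median log2 ratio of -0.24; at the shares called over all genes (0.677% higher and 0.911% lower) few calls would be found among 8 genes, so this count says little about the pathway. *Grem1*, a secreted inhibitor of bone morphogenetic proteins, was at 69.6 and 51.7 CPM against 28.9 and 25.0 CPM, a ratio of 2.25 (1.30 to 3.76) over both libraries. *Fstl5*, which encodes a follistatin-like protein, was at 90.4 and 117 CPM against 275 and 168 CPM, and *Fstl1* at 69.6 and 18.8 CPM against 48.7 and 68.0 CPM. *Bmper*, a secreted regulator of bone morphogenetic proteins that was not on the list, was among the 29 higher genes, at 62.6 and 65.8 CPM against 15.2 and 24.4 CPM. Of 6 tested genes for insulin-like growth factor signalling, *Igfbp5* was higher and *Igf1*, the growth factor, lower (0 and 28.2 CPM against 88.2 and 90.5 CPM), while *Grb10* and *Htra1* were not called.

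*Edil3*, a secreted integrin ligand, was found in 41 members at 556 and 475 CPM against 166 and 146 CPM in the others. Its share was not higher throughout: 64.3% of untreated members had it, against 78.1% of untreated *C1ql2* *Prox1* cells. In the 4OH-tamoxifen library these shares were 74.4% and 43.8%. *Sdk2*, a synaptic adhesion molecule, was at 76.5 and 117 CPM against 6.08 and 28.9 CPM and was found in 27 members. *Alcam*, a cell adhesion molecule of the immunoglobulin family, was found in 56 members at 918 and 1405 CPM against 408 and 534 CPM. *Pcp4*, which modulates calmodulin, was at 904 and 785 CPM against 100 and 306 CPM, and was found in 50 members and in 14.9% of microglia-like cells. *Gpr139*, an orphan receptor, was at 216 and 160 CPM against 63.9 and 57.8 CPM, and *Gria1*, a subunit of AMPA glutamate receptors, at 480 and 437 CPM against 184 and 173 CPM. *Tmtc1*, *Mtcl1* and *Tcerg1l* completed the 14 highest, at 118 and 141, 104 and 94.0, and 76.5 and 122 CPM in members. The log2 ratio of *Tcerg1l* was 0.74 when cells were thinned and that of *Gpr139* was 0.83 with at most 10% mitochondrial UMIs, neither past the limit of the call.

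Set against each of the other groups rather than their sum, the members were the highest of the 6 sets for 28 of the 29 higher genes, pooled and also within each library. The exception in the pooled cells was *Nxph4*, which encodes a secreted neurexin ligand and was at 398 CPM in members and 420 CPM in the *Cck* *Tfap2b* group. Genes called higher against the summed others were already likely to be highest in members, so this rank is only a description. Some margins were small, as for *Shisa9* at 118 CPM in members and 104 CPM in the *Crhbp* *En1* group. In the pooled cells alone, 106 of whose 114 cells of no group were from the 4OH-tamoxifen library, the second place was held by the cells of no group for 13 genes, the *Crhbp* *En1* group for 6, the *C1ql2* *Prox1* group for 5 and the other two groups for 2 each. The *Cck* *Tfap2b* group was the lowest for 13.

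**Figure D4:**
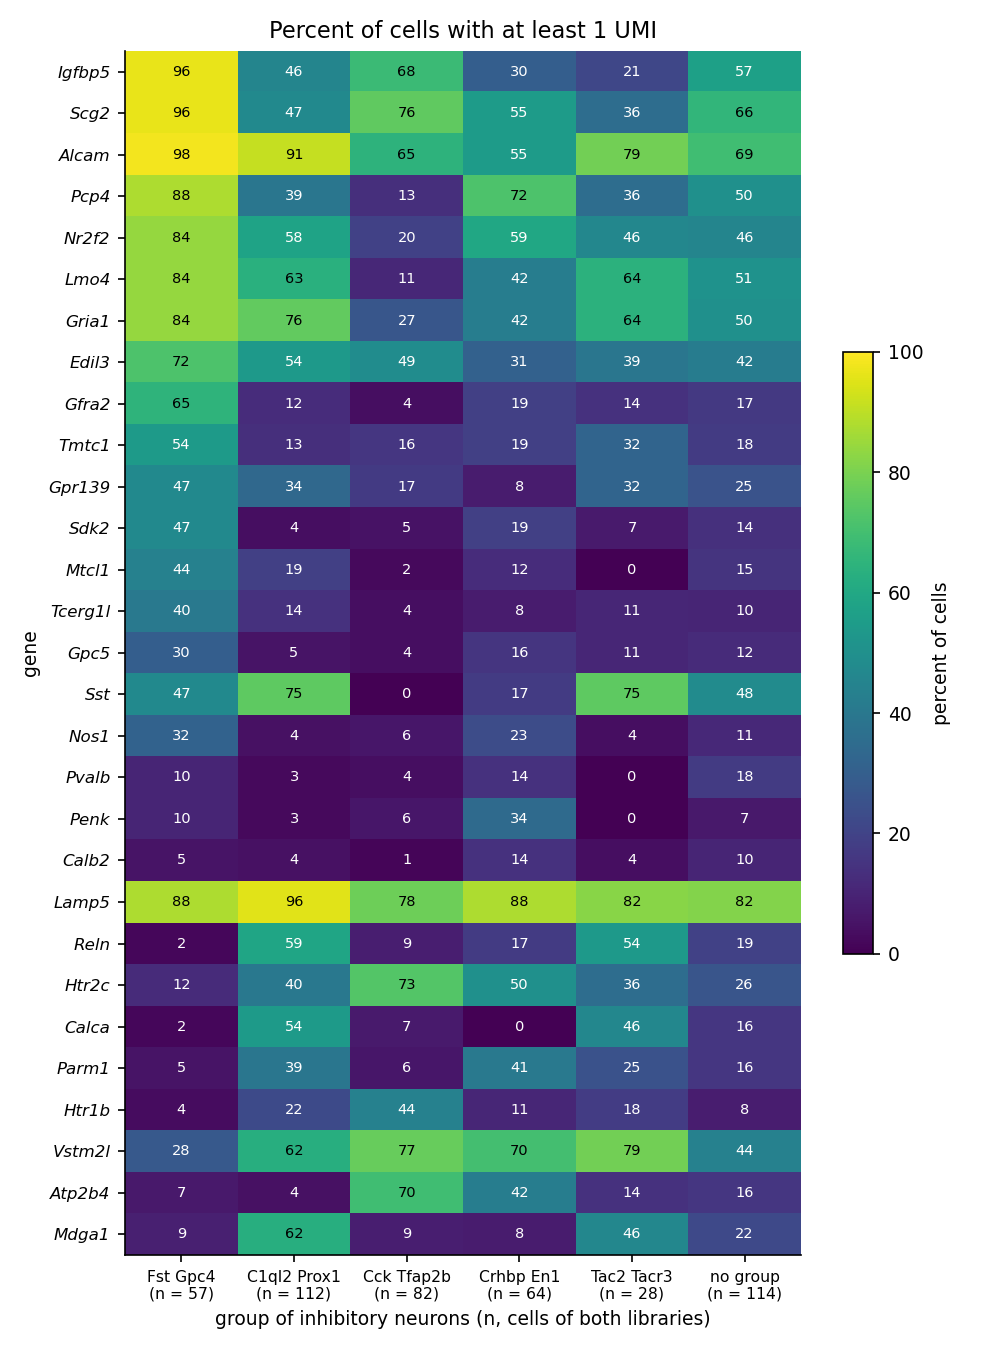
Percent of cells with at least 1 UMI of each gene (rows) in the members, the 4 other groups and the cells of no group (columns), both libraries together, from 0 (dark) to 100 (yellow). *Igfbp5* and *Scg2* were found in 96.5% of members and *Gfra2* in 64.9%, while *Reln* was found in 1.75% of members and 58.9% of the *C1ql2* *Prox1* group.

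Many of the 39 lower genes were marked by their near absence. *Reln*, which encodes the extracellular matrix protein reelin, had 1 UMI in 1 of 57 members and was at 104 CPM in the others (30.2% of cells), a ratio of 0.0269 (0.000678 to 0.151). *Calca*, which encodes calcitonin and the peptide CGRP, likewise had 1 UMI in members and was at 100 CPM in the others (ratio 0.0280, 0.000705 to 0.158). At 1.75%, both shares in members were too close to those in microglia-like cells (3.39% for *Reln* and 0.641% for *Calca*) to be read as expression. *Reln* was at 266 CPM in the *Tac2* *Tacr3* group and 175 CPM in the *C1ql2* *Prox1* group. *Calca* was at 239 CPM in the former and 219 CPM in the latter. Its absence was shared with the *Crhbp* *En1* group, where it was at 0 CPM.

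Of the serotonin receptor genes *Htr2c* and *Htr1b* were lower. *Htr2c* was at 34.8 CPM (11.3 to 81.2) and 23.5 CPM (7.63 to 54.8) in members and 239 and 180 CPM in the others, found in 7 of 57 members (12.3%) and 44.2% of the others. *Htr1b* had 1 UMI in each library's members, at 6.96 and 4.70 CPM, against 66.9 and 48.8 CPM. They were 2 of 10 tested neuromodulator receptor genes, and the other 8 were not called, beside 0.911% of all genes lower. *Htr3a*, too low to be tested, was at 20.9 and 14.1 CPM in members against 7.61 and 10.9 CPM. *Oprl1*, the receptor for nociceptin, was at 181 and 141 CPM in members against 68.5 and 93.1 CPM and was not called. *Atp2b4*, a plasma membrane calcium pump, was at 0 and 18.8 CPM against 108 and 93.7 CPM. Its low level was shared with the *C1ql2* *Prox1* group, at 6.78 and 7.58 CPM. *Vstm2l* was at 41.7 and 61.1 CPM against 329 and 272 CPM, *Mdga1*, an adhesion protein that binds neuroligins, at 20.9 and 14.1 CPM against 131 and 73.2 CPM, and *Parm1* at 0 and 14.1 CPM against 54.8 and 96.9 CPM. *Parm1* was also low in the *Cck* *Tfap2b* group, at 0 and 18.4 CPM. In the 4OH-tamoxifen library *Mdga1* was at 11.1 CPM in the *Crhbp* *En1* group and 18.4 CPM in the *Cck* *Tfap2b* group.

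Of 49 tested genes for synaptic adhesion and axon guidance, 5 were lower and 0 higher, beside 0.911% lower and 0.677% higher over all genes. The list did not hold *Sdk2*, *Alcam*, *Negr1* or *Nxph4*, adhesion genes that were among the 29 higher ones. The 5 lower genes were the guidance receptor genes *Epha5* (174 and 235 CPM against 747 and 612 CPM), *Robo1* and *Robo2*, the protocadherin gene *Pcdh15* and the guidance cue gene *Sema3a*. *Robo2* was at 20.9 and 23.5 CPM against 106 and 63.5 CPM, and *Pcdh15* at 0 and 18.8 CPM against 65.4 and 62.3 CPM. With both libraries pooled, in which the groups are mixed in different shares, members were the lowest of the 6 sets for 29 of the 39 lower genes. Within the libraries they were alone at the lowest level for 21 untreated and 28 4OH-tamoxifen genes, a rank that the call against the summed others itself favours. The highest set was the *Cck* *Tfap2b* group for 17 genes, the *Tac2* *Tacr3* group for 8, the *Crhbp* *En1* group for 7, the *C1ql2* *Prox1* group for 5 and the cells of no group for 2.

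Genes for ion channels, transmitter receptors and pH sensing were counted in the same way. None of 22 tested potassium channel genes, 17 receptor genes for GABA and glycine and 13 genes for acid sensing and pH regulation was called, and the medians of these lists were -0.08, 0.03 and 0.32 on the log2 scale. With 0.677% of all genes higher and 0.911% lower, counts of 0 are near the share over all genes. *Asic2*, a proton-gated channel subunit, was at 341 and 305 CPM against 149 and 181 CPM (1.86 times), and *Asic4*, of the same family, at 132 and 89.3 CPM against 66.9 and 39.8 CPM (2.23 times). *Gabrg1*, a subunit of GABA receptors, was at 90.4 and 61.1 CPM against 25.9 and 27.6 CPM. Of 11 tested sodium channel genes 1 was lower (*Fgf13*, a channel modulator, 20.9 and 28.2 CPM against 74.5 and 80.9 CPM), and of 9 calcium and HCN channel genes 1 was lower (*Cacna1e*, a subunit of R-type calcium channels, 27.8 and 28.2 CPM against 83.7 and 82.2 CPM). Among 21 glutamate receptor genes *Gria1* and *Shisa9*, an AMPA receptor partner (104 and 127 CPM against 27.4 and 48.8 CPM), were higher and 0 were lower. Of 3 genes of perineuronal nets, 5 of neurofilaments and 1 immediate early gene tested, 0 were called, and of 10 tested calcium-binding protein genes *Pcp4* was higher.

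One of the genes that divided the group was *Sst*, which encodes the inhibitory neuropeptide somatostatin (chr16:23889573-23890958, minus strand). Its promoter is shown with that of *Scg2* because both peptide genes were called higher in members and both promoters hold the cAMP response element TGACGTCA, which CREB-family factors bind; the promoter of *Igfbp5*, which lacks it, is shown for comparison. The 250 bases before each start in RefSeq (GRCm38.p6) lie at chr16:23890845-23891094, chr1:79440027-79440276 and chr1:72874866-72875115, all read from the minus strand, with the element in capitals.
Sst promoter: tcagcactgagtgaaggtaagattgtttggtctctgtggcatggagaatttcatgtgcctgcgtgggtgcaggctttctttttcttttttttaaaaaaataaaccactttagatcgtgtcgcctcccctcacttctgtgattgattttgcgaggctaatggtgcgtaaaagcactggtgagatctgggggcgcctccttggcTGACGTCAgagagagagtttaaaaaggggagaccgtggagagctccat
Scg2 promoter: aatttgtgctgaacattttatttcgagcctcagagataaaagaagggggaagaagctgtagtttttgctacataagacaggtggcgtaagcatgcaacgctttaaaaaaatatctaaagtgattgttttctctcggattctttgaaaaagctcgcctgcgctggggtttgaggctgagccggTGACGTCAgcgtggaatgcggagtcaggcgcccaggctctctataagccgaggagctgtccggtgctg
Igfbp5 promoter: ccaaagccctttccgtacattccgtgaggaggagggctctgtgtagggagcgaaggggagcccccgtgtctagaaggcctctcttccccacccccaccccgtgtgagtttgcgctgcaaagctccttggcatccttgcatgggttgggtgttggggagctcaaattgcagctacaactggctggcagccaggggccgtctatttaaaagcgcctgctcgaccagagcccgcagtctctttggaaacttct

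The element begins 48 bases before the RefSeq start of *Sst* and 68 before that of *Scg2*. The span given above for *Sst* is from GENCODE, which places the start elsewhere, and it reaches into the promoter window. It occurs in 439 of 27025 promoters of this length (1.62%), in 117 of the 3297 promoters matched to tested genes (3.55%), in 2 of the 21 matched among higher genes (9.52%; *Scg2* and *Sst*) and in 0 of the 31 matched among lower genes. AGGTCA, bound by *Nr2f2* and other nuclear receptors, was found in 13.8% of all promoters, in 10.3% of those of tested genes, in 2 of 21 (*Hs6st2* and *Pcp4*) and in 4 of 31. ATGCAAAT, bound by POU-domain factors, was found in 1.61% of all promoters, in 1.27% of those of tested genes, in 1 of 21 (*Zswim6*) and in 1 of 31 (*Rgs4*). Both strands were searched, TGACGTCA reads the same on both, and none of the motifs contains another. A match says only that these letters are in the window.

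*Sst* was found in 7 of 14 untreated and 20 of 43 4OH-tamoxifen members (47.4% together, 34.0 to 61.0), close to the 42.8% of the other inhibitory neurons and far above the 1.56% of microglia-like cells. Its summed level was at 2323 CPM (2081 to 2586) and 2011 CPM (1825 to 2211) in members against 1089 and 722 CPM in the others (ratio 2.57, 2.36 to 2.80). The untreated value rested on 1 cell with 151 of the 334 UMIs (45.2%), and without it the log2 ratio of that library was 0.32 in place of 1.09, so that *Sst* was no longer called. By group, *Sst* was at 2137 CPM in members, 1347 CPM (75.0% of cells) in the *C1ql2* *Prox1* group, 1281 CPM (75.0%) in the *Tac2* *Tacr3* group, 1205 CPM (48.2%) in the cells of no group, 327 CPM in the *Crhbp* *En1* group and 0 in the *Cck* *Tfap2b* group. The order of the summed levels was that of the pooled libraries: in the untreated library the members lay at 2323 CPM with their highest cell and at 1364 CPM without it, against 1879 CPM (1726 to 2043) in the *C1ql2* *Prox1* group.

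The *Sst* UMIs of the members lay in few cells. Of 57 members, 30 had 0, 13 had 1 to 9 and 14 had at least 10 *Sst* UMIs, classes set after the values were seen. The 14 cells, 4 untreated and 10 4OH-tamoxifen, held 720 of the 762 UMIs (94.5%), and the highest cell held 151 (19.8%). Their median depth was 3959 UMIs, against 5147.5 in the 30 cells without *Sst*. Cells with and without *Sst* were alike in *Igfbp5* (1472 and 1386 CPM), *Nr2f2* (565 and 516 CPM) and *Fst* (447 and 353 CPM). They differed by more than their intervals in *Scg2*, at 1888 CPM (1682 to 2112) with and 1171 CPM (1024 to 1333) without *Sst*, and in *Lmo4*, at 348 CPM (263 to 452) and 726 CPM (612 to 856).

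*Nos1*, which encodes neuronal nitric oxide synthase, was then set beside *Sst*. It was found in 18 of 57 members (31.6%, 19.9 to 45.2), 7 untreated and 11 4OH-tamoxifen, against 9.75% of the others and 0.824% of microglia-like cells. At 181 CPM (118 to 265) and 84.6 CPM (50.1 to 134) against 28.9 and 46.2 CPM, its log2 ratios were 2.29 and 0.75, and it was not called. *Nos1* was found in 10 of the 30 members with 0 *Sst* UMIs, 7 of the 13 with 1 to 9 and 1 of the 14 with at least 10, at 169, 125 and 12.3 CPM. In untreated members these were 5 of 7, 2 of 3 and 0 of 4, and in 4OH-tamoxifen members 5 of 23, 5 of 10 and 1 of 10. Depth moved with these classes in the untreated library, at medians of 11988, 12286 and 6495.5 UMIs, and less in the 4OH-tamoxifen library, at 4169, 4311 and 3959 UMIs, and its part was not tested. By group, *Nos1* was at 129 CPM (97.5 to 168) in the *Crhbp* *En1* group and 123 CPM (89.7 to 166) in members, which overlapped, then at 45.6 CPM in the cells of no group, 15.2 CPM in the *Cck* *Tfap2b* group, 7.24 CPM in the *C1ql2* *Prox1* group and 6.81 CPM in the *Tac2* *Tacr3* group. These levels are pooled, and the order of the first 2 turned between libraries, with *Nos1* at 181 and 84.6 CPM in members and 135 and 128 CPM in the *Crhbp* *En1* group.

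The other markers of interneuron classes were rare or shared. *Pvalb*, a calcium-binding protein, was found in 6 members (10.5%, 3.96 to 21.5), close to the 8.75% of the others and the 4.03% of microglia-like cells. *Calb2*, which encodes calretinin, was found in 3. *Penk*, which encodes the enkephalin precursor, was found in 6, all of them in the 4OH-tamoxifen library, and in 9.50% of the others. *Gal* was found in 8, *Htr3a* in 4, *Nts* and *Tac1* in 2 each, and *Vip*, *Npy*, *Calb1*, *Crh* and *Pdyn* in 0. *Lamp5*, which encodes a vesicle-associated membrane protein, was found in 87.7% of members and 85.8% of the others. *Pnoc*, which encodes nociceptin precursor, was at 807 and 648 CPM in members against 519 and 315 CPM (ratio 1.90, 1.64 to 2.19) and was not called. Of 4 class markers tested, *Sst* was higher and *Reln* lower, and of 9 tested neuropeptide genes *Scg2* and *Sst* were higher and *Calca* lower, beside 0.677% and 0.911% over all genes. In both lists the call of *Sst* was lost without 1 untreated cell.

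Members also held some UMIs of markers of other cell types. The 5 astrocyte markers were all detected, in 14 of 14 and 42 of 43 members, with a summed level of 1162 and 1287 CPM against 1205 and 1208 CPM in the others. Those of oligodendrocytes were at 188 and 305 CPM against 281 and 918 CPM. *Mag*, an oligodendrocyte gene, was the 1 of 11 tested non-neuronal genes that was called, and was lower, at 55.6 and 122 CPM against 122 and 335 CPM. Over all genes 0.911% were lower and 0.677% higher. Microglia markers were at 883 and 179 CPM in members against 66.9 and 117 CPM in the others, with all 7 detected in both libraries, and 1 untreated member held 119 of these UMIs. The range per member was 0 to 119 in the untreated and 0 to 14 in the 4OH-tamoxifen library. *C1qa* was at 209 and 23.5 CPM and *C1qb* at 188 and 65.8 CPM in members. The part of this RNA in the results was not tested. Without barcodes that had at least 0.5% non-neuronal marker UMIs, 32 genes were higher and 43 lower, 28 and 37 of them shared with the 29 and 39.

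Untreated and 4OH-tamoxifen members were compared as single libraries. Of 2304 genes with at least 100 CPM in either, 59 were at least 2 times higher in untreated members (2.56%) and 57 in 4OH-tamoxifen members (2.47%), after 10 CPM was added and where at least 25% of the cells of the higher library had the gene. These genes rested on few UMIs, a median of 30 and 39 in members. *Fdps*, an enzyme of sterol synthesis, was at 174 CPM (113 to 257) and 28.2 CPM (10.3 to 61.4) in members, and at 166 and 69.3 CPM in the other inhibitory neurons. *Gpx3*, a secreted glutathione peroxidase, was at 153 and 28.2 CPM, but its 22 untreated UMIs came from 4 cells, and its log2 ratio turned from 2.09 to -0.58 when the selecting sum had to lead by at least 2 UMIs. *Celf6*, *Uri1* and *Eif3m* were at 132, 118 and 111 CPM in the former and each at 28.2 CPM in the latter, with 9 of the 19 untreated *Celf6* UMIs in 1 cell.

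In the opposite direction, *Mt2*, a metallothionein that binds zinc, was at 69.6 CPM (33.4 to 128) and 338 CPM (265 to 426) in members, and likewise at 116 and 323 CPM in the other inhibitory neurons. *Ythdc1*, a reader of methylated RNA, had 0 UMIs in the former and was at 103 CPM in the latter, at least 4.95-fold higher against a floor of 3 counts over the group, and was at 51.7 and 68.7 CPM in the others. *Cd9*, *S100a6* and *Dnajc19* were at 20.9, 20.9 and 34.8 CPM in the former and at 160, 150 and 141 CPM in the latter, with 15 of the 34 *Cd9* UMIs and 18 of the 32 *S100a6* UMIs in 1 cell each. In the other inhibitory neurons, 1 of the 59 and 7 of the 57 genes were also past 2-fold in the same direction. These counts depended strongly on the members kept and the limits chosen, as given in the closing section, and treatment, batch and library cannot be told apart in them.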

How the data were processed

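The authors dissociated the tissue, prepared 10x Genomics libraries, converted reads with bcl2fastq 2.18.0.12, aligned them to mm10 (GRCm38) and counted UMIs with Cell Ranger 2.2.0. The deposited matrices hold raw UMI counts of genes by barcodes. Members and gene lists were chosen with earlier results of these data known.

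Both count tables were filtered as stated and no doublets were removed. Scrublet in scanpy 1.11.5 marked 6 (0.159%) and 544 (5.31%) barcodes, 0 and 3 of them members. UMIs were summed over cells and given per 1000000 (CPM) with exact Poisson intervals, shares with exact Clopper-Pearson intervals, and ratios with exact conditional intervals, all at 95%. Leiden clusters (leidenalg 0.10.2) used variable genes without the 22 rule genes, 8 neighbours per library and a resolution of 0.7. Positions are from GENCODE and promoters from RefSeq. Scripts were tested on simulated data.

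The genes named were the 14 highest and 8 lowest called genes that at least 20% of cells of the higher side had, ranked by the smaller library ratio, the 5 largest in each direction between libraries, all transmitter and class markers, and the 4 largest ratios of each other list. Some genes of these lists are not reported here. Others were named because they decided a count, and were chosen after their values were seen. Alternatives changed the filters, the rule, doublets, the reference cells, the CPM added, the limits, the depth and the clustering.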

Additional observations from a re-analysis of the deposited data

Results flagged for a closer look

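The ratio of members over other inhibitory neurons pointed in opposite directions in the libraries for *Calb2*. The log2 ratio was 1.91 in the untreated library (90.4 CPM in members, 48.1 to 155, against 16.7 CPM in the others) and -1.17 in the 4OH-tamoxifen library (4.70 CPM, 0.119 to 26.2, against 23.1 CPM). The difference between the libraries was not tested. The untreated value rested on 13 UMIs in 2 of 14 cells, 8 of them in 1 cell, and the 4OH-tamoxifen value on 1 UMI in 1 of 43 cells.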

How the results depend on the processing

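No paired analysis was possible because each condition had 1 library, and for the same reason no replicate could be left out. The number of members dropped from 57 to 35 with at most 10% mitochondrial UMIs and to 35 with a sum of at least 3 (7.66% of inhibitory neurons in place of 12.5%), the share with *Fst* from 84.2% to 62.5% when *Fst* was left out of the sum, and the share in the main cluster from 91.2% to 73.7% at a resolution of 1.4. The 29 higher genes became 45 with 1 CPM added and 76 in thinned cells. Of the 29, 18 remained when the member with most UMIs of the gene was left out of each library (25 and 22 when it was left out of the untreated or the 4OH-tamoxifen library alone). The 39 lower genes became 60 with 1 CPM added, 117 with no filter on low values, 12 with at least 100 CPM and 84 in thinned cells; 19 and 23 were shared with those of the thinned cells. With 25 CPM added, 20 were higher and 26 lower. Of the 29, 19 were shared with the 41 higher genes with at most 10% mitochondrial UMIs, 19 with the 37 at a sum of at least 3, and 20 remained at 100 CPM. The 59 genes higher in untreated and 57 higher in 4OH-tamoxifen members became 228 and 159 with at most 10% mitochondrial UMIs, 113 and 104 with a sum of at least 3, 95 and 71 by the mean of each cell's CPM, 37 and 37 with 25 CPM added, 403 and 165 with no filter, 10 and 15 with at least 200 CPM, and 258 and 183 in thinned cells. The log2 ratio of *Gpx3* between libraries turned from 2.09 to -0.58 with a margin of at least 2 UMIs over the other sums. The ratios followed through the alternatives were those of the highest and lowest called genes and of the largest differences between libraries, as named above. Of 264 such log2 ratios of members over others, 243 stayed within their counting interval and 0 changed direction. Between libraries 109 of 110 kept their direction, and 257 of 306 shares stayed within their interval. Because the genes were chosen for large ratios, a change of direction was unlikely beforehand. The counts of directions therefore do not extend to other genes. Causes were not tested. Depth limits shares of genes with 1 UMI per cell, and the 14 untreated members limit any comparison of libraries.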

Other observations

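Outside the genes named by rule, *Uts2b*, which encodes the precursor of a urotensin-related peptide, lay farthest apart in the plot of both libraries and was looked up after its values were seen. It was at 584 CPM (466 to 723) in untreated members, but its 84 UMIs came from 2 of 14 cells, the higher with 45. It had 0 UMIs in the 43 4OH-tamoxifen members. In the other inhibitory neurons it was at 19.8 CPM in 2 of 80 untreated cells and 34.0 CPM in 11 of 320 4OH-tamoxifen cells, and the difference between libraries was not tested.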
